A study of Mus musculus with 24 samples.

Results

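The miR-99b, let-7e and miR-125a cluster is a short stretch of mouse chromosome 17 that holds 3 microRNA (miRNA) precursors in a row. Its 4 members here, mmu-miR-125a-5p, mmu-miR-125a-3p, mmu-let-7e-5p and mmu-miR-99b-5p (written below without the mmu- prefix for mouse), are 4 of the cluster's 6 mature miRNAs on an array of 1881 mouse miRNAs. The other 2, let-7e-3p and miR-99b-3p, were not detected on any array. The 4 members were chosen by measured values, their signals and detection calls along the liver lobule. Their levels by zone are therefore given as a description and no test of them is read as evidence. miR-125a-5p was not detected on any of the 12 arrays from the central zones of the lobule (zones 1 to 4) and was detected on all 12 from the portal zones (zones 5 to 8). let-7e-5p followed it almost array for array, at signals between 11.2 and 22.1 in the portal zones against at most 2.39 in the central zones. miR-125a-3p, cut from the same hairpin as miR-125a-5p, was detected on all 24 arrays and showed no such contrast. miR-99b-5p was detected on 1 array.

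Hepatocytes came from 3 male C57BL/6J mice aged 3 months, untreated, fed freely and kept on a reversed light cycle. Viable tetraploid cells without CD45 or CD31 were sorted by CD73, a pericentral surface enzyme, and E-cadherin, a periportal adhesion protein, into 8 populations of 50000 cells. These are zones 1 (most pericentral) to 8 (most periportal), with 1 array per zone and mouse and therefore 3 arrays per zone. A zone is a gate on surface proteins and not a measured position, and all 8 zones of a mouse share that animal.

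MicroRNAs of about 22 bases guide Argonaute proteins to matching sites in messenger RNAs, mostly through the seed, bases 2 to 8 counted from the 5′ end. Both strands of a hairpin can yield a mature miRNA, called the 5p and the 3p arm, and usually one of them is kept while the other is degraded. let-7 and lin-4, the worm relative of miR-125, were found as regulators of developmental timing, and the let-7, miR-125 and miR-99 families lie together in several animal clusters. let-7 is known for repressing Lin28 and Hmga2, and the miR-99 and miR-100 family for acting on the mTOR pathway. In the liver, many metabolic genes differ in expression between the central and the portal end of the lobule.

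The mature sequences are shown because the results concern single arms of a hairpin and miRNAs that share a seed. They were taken from RefSeq on GRCm38.p6, where all 4 members were found by name, and the capitals mark the seed. All lie on the plus strand.
miR-99b-5p, chr17:17830194-17830215: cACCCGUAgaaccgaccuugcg
let-7e-5p, chr17:17830366-17830387: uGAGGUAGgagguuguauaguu
miR-125a-5p, chr17:17830817-17830840: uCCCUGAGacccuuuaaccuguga
miR-125a-3p, chr17:17830855-17830876: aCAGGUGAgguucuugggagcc
The cluster spans 683 bases from the start of miR-99b-5p to the end of miR-125a-3p, within the bounds of the gene Spaca6 in the RefSeq gene table. Between the miR-99b-3p and let-7e-5p sequences lie 112 bases, and between let-7e-3p and miR-125a-5p lie 384. The 4 members have 4 different seeds. No other miRNA on the array with a RefSeq sequence shares the seed of miR-125a-3p, while the 3 other seeds are those of the let-7, miR-125 and miR-99 families.

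The 2 arms of miR-125a face each other in 1 hairpin of 68 bases, printed with both arms in capitals because their signals parted along the lobule.
Mir125a hairpin, chr17:17830812-17830879: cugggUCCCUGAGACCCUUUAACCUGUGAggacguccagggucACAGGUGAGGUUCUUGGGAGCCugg
The 5p arm starts at base 6 of the hairpin and the 3p arm at base 44.

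Signals are Agilent total gene signals, in intensity units, scaled so that arrays can be compared. The summed signal of an array lay between 57773 and 138147 units and between 248 and 368 miRNAs were detected. The number of arrays, 3 per zone, limits the precision of zone means. Zones 1 to 4 lay in the first row of all 3 slides and zones 5 to 8 in the second, as the deposited files are named, each slide holding 1 mouse. Slide row and side of the lobule therefore cannot be told apart, and mouse and slide are likewise 1 factor. Within each row the slide column followed the zone, columns 1 to 4 for zones 1 to 4 and again for zones 5 to 8. Zone and slide column within a side therefore cannot be told apart either. The 5 control sequences detected on all 24 arrays differed between the portal and central zones by -0.31 to 0.02 log2 units, with a median of -0.10. The hepatocyte markers miR-122-5p, miR-192-5p and miR-194-5p were detected on all 24 arrays, with a summed signal of 7667 to 12934 in zones 1 to 4 and 12304 to 16971 in zones 5 to 8. Of 21 markers of other liver cells on the array 2 were detected at all. miR-126a-3p, the endothelial one, was on 7 of 12 arrays in zones 1 to 4 and 9 of 12 in zones 5 to 8, at no more than 11.4 units. miR-200b-3p, of biliary epithelium, was on 1 array. The leukocyte, stellate and erythroid markers were all undetected.

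miR-125a-5p, the arm that shares its seed with miR-125b, was the member with the sharpest pattern. In zone 5 its scaled signal was 18.3 in mouse 1, 12.4 in mouse 2 and 18.5 in mouse 3. In zone 6 the 3 mice gave 20.0, 16.3 and 23.0, in the same order. In zone 7 they gave 21.2, 17.5 and 25.5, and in zone 8 19.6, 17.8 and 23.1. Mouse 2 was lowest in each of these 4 zones and mouse 3 highest, so the mice kept their order throughout the portal zones. In zones 1 to 4 all 12 arrays were called undetected, for which the deposited files carry a placeholder and no measured value. The array's own error estimate was 7.94% to 12.3% of the signal on the 12 detected arrays. The lowest of these signals was 12.4 units, where the lowest detected signal of any miRNA on an array was at most 1.62. The limit of this probe itself was not measured.

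**Figure D1:**
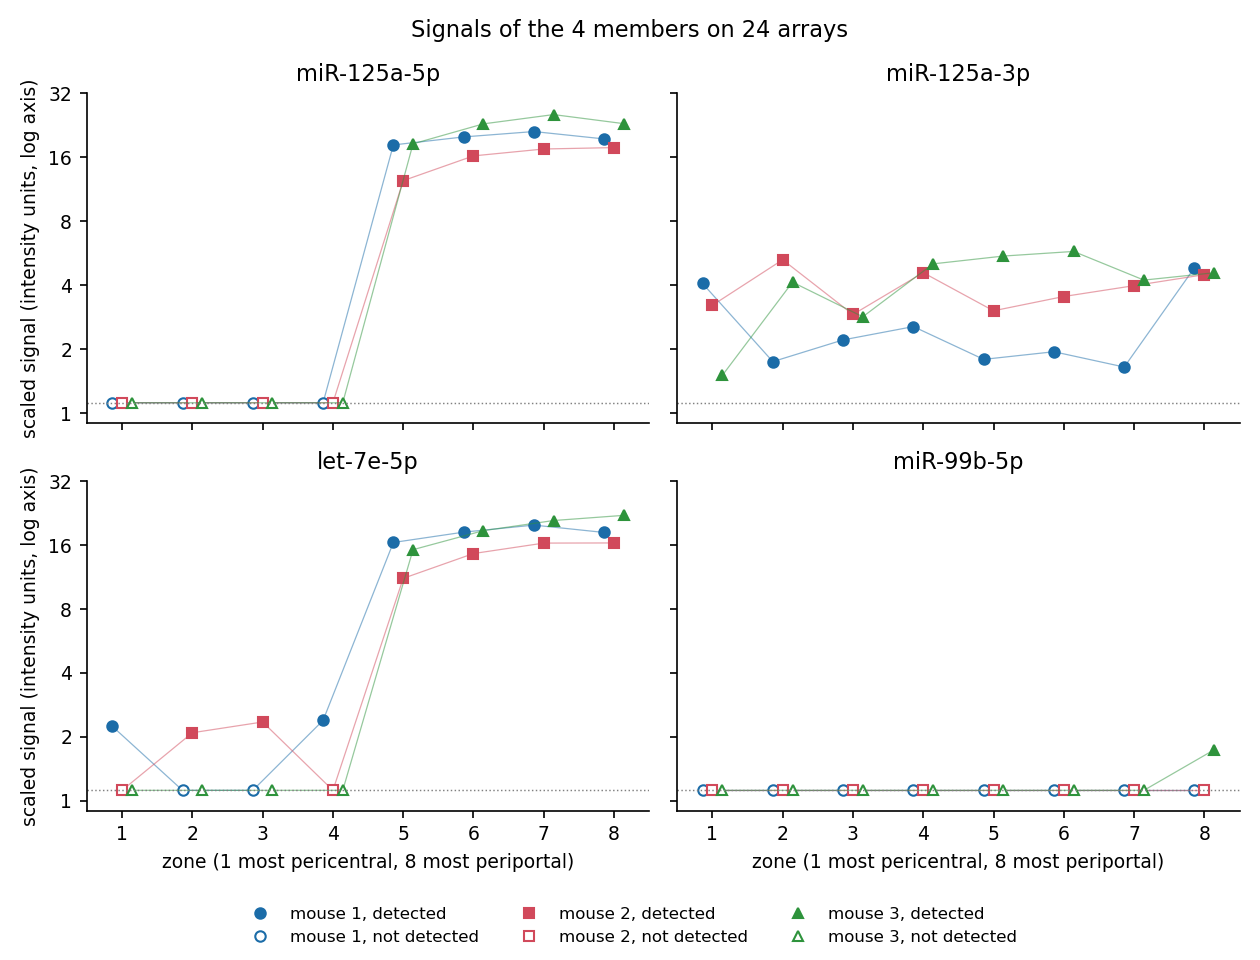
Scaled signal (intensity units, log axis) of the 4 members by zone, 1 point per array, with colour and shape for the mouse; open symbols at the dotted line are undetected arrays set to the floor of 1.12 and carry no order. miR-125a-5p and let-7e-5p jump between zones 4 and 5 in all 3 mice, miR-125a-3p lies between 1.51 and 5.78 throughout, and miR-99b-5p has 1 detected point.

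Since the lower side was undetected, the height of the jump can only be set against a limit. The lowest detected signal of any miRNA on each array of zones 1 to 4 had a geometric mean of 1.17 units, and miR-125a-5p over zones 5 to 8 had one of 19.1 units, 16.4-fold higher. Mouse by mouse this ratio was 16.0, 12.6 and 21.6. From zone 4 to zone 5 alone it was 14.1-fold. The limit can differ between probes: against the 5th percentile of the detected signals, 2.44 units, the ratio was 7.84-fold. In bulk RNA of sorted cells, fewer cells holding a miRNA and less of it in each cell cannot be told apart.

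Within zones 5 to 8 miR-125a-5p changed little beside that jump. Zone means of the log2 signal were 4.02 ± 0.33 in zone 5, 4.29 ± 0.25 in zone 6, 4.40 ± 0.27 in zone 7 and 4.32 ± 0.19 in zone 8 (SD, n = 3). Ordered by their means these zones ran 5, 6, 8 and 7, and the ranges of neighbours in that order overlapped across mice. Within each mouse the signal was higher in zone 6 than in zone 5, by 0.27 ± 0.13 log2 units on average (SD of 3 mice), and higher in zone 7 than in zone 6, by 0.11 ± 0.03. From zone 7 to zone 8 it went up in 1 mouse of 3. Zone 8 was above zone 5 by 1.07-fold in mouse 1, 1.43-fold in mouse 2 and 1.24-fold in mouse 3. The slope per zone was 0.04, 0.17 and 0.11 log2 units, upward in all 3 mice. Slide column rose along with zone in each mouse, so zone and slide column cannot be told apart here.

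let-7e-5p, a member of the large let-7 family, gave nearly the same picture. Its scaled signal in zone 5 was 16.5 in mouse 1, 11.2 in mouse 2 and 15.2 in mouse 3. Zone 6 gave 18.4, 14.6 and 18.7, zone 7 gave 19.9, 16.3 and 20.9, and zone 8 gave 18.3, 16.4 and 22.1. As for miR-125a-5p, mouse 2 was lowest in every portal zone. Unlike miR-125a-5p, let-7e-5p had a measured signal on 4 central arrays of 12. These were zones 1 and 4 of mouse 1, at 2.25 and 2.39 units, and zones 2 and 3 of mouse 2, at 2.09 and 2.35. Each carried an error of 31.8% to 32.7% of its signal, against 8.07% to 13.3% in zones 5 to 8, and mouse 3 had none. The central and portal arrays did not overlap: the lowest portal value of 11.2 was well above the highest central value of 2.39.

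The zone means of let-7e-5p in log2 units were 3.82 ± 0.30, 4.10 ± 0.20, 4.24 ± 0.19 and 4.23 ± 0.22 in zones 5 to 8 (SD, n = 3). In the central zones they lay between 0.47 and 0.53, close to the floor of 0.17 that stands for undetected arrays. Here too, zones 4 and 5 were the neighbours in the order of means whose ranges did not overlap, while the other 6 pairs of neighbours did. Slopes within zones 5 to 8 were 0.06, 0.18 and 0.18 log2 units per zone in mice 1 to 3, upward in each. Slide column again rose with zone. Both the step from zone 5 to 6 (0.28 ± 0.11, SD of 3 mice) and that from zone 6 to 7 (0.14 ± 0.03) were upward in every mouse, and that from zone 7 to 8 in 2 of 3.

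miR-125a-3p, the other arm of the miR-125a hairpin, was faint but called detected on all 24 arrays. Some of its signals lay below 2.44 units, the 5th percentile of detected signals averaged over the arrays of zones 1 to 4. Scaled signals on the 12 arrays of zones 1 to 4 ran from 1.51 over a median of 3.07 to 5.28. On the 12 arrays of zones 5 to 8 they ran from 1.65 over 4.11 to 5.78, so both sides overlapped almost entirely. Mouse 1 gave 4.08, 1.75, 2.22, 2.56, 1.79, 1.95, 1.65 and 4.84 in zones 1 to 8. Its 2 end zones were the high ones. The arrays of mouse 1 detected 292, 248, 276, 295, 252, 259, 261 and 299 miRNAs in zones 1 to 8. The array with the lowest miR-125a-3p signal of all, zone 1 of mouse 3, detected 302. Whether this faint signal follows the number of miRNAs detected on an array was not tested. Mouse 2 gave 3.22, 5.28, 2.92, 4.59, 3.04, 3.55, 3.99 and 4.49, and mouse 3 gave 1.51, 4.14, 2.85, 5.05, 5.50, 5.78, 4.24 and 4.59. The highest zone was 8 in mouse 1, 2 in mouse 2 and 6 in mouse 3, and in zone 8 the 3 mice came together, at 4.49 to 4.84 units. The mean difference of zones 5 to 8 minus zones 1 to 4 was 0.17 ± 0.46 log2 units (SD over 3 mice). It was -0.13 in mouse 1, -0.06 in mouse 2 and 0.70 in mouse 3, so the direction was not shared. All 7 pairs of neighbouring zones in the order of means overlapped. Errors of 9.10% to 28.7% of the signal accompanied these values.

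miR-99b-5p, from the first precursor of the cluster, was detected on the array of zone 8 of mouse 3 alone, at 1.74 scaled units with an error of 28.3% of the signal. The same array held the highest let-7e-5p value of all 24. On the other 23 arrays miR-99b-5p had no measured value, as had the 3p arms let-7e-3p and miR-99b-3p on all 24. Over the whole array 1433 miRNAs (76.2% of 1881) were detected nowhere and 39 (2.07%) on 1 array only. With 1 detected value miR-99b-5p did not enter the fits, which took the 339 miRNAs detected on at least 6 arrays, 3 of them members.

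The background for these patterns was taken over all miRNAs on the array. Detection on 0 central and 12 portal arrays, the pattern of miR-125a-5p, was met by 4 of 1881 miRNAs (0.213%), and the reverse by 0. Allowing up to 4 detected arrays in zones 1 to 4 adds let-7e-5p and makes it 5 (0.266%), while detection on all 24 arrays, as for miR-125a-3p, was met by 198 (10.5%). Among the 339 fitted miRNAs, 14 (4.13%) had every portal array above every central one, miR-125a-5p and let-7e-5p among them, and 0 the opposite. In limma, zones 5 to 8 against zones 1 to 4 called 35 miRNAs higher (10.3%) and 20 lower (5.9%) at an adjusted p under 0.05. With mouse as a block these were 45 (13.3%) and 50 (14.7%). A slope on the zone number over all 8 zones called 35 rising (10.3%) and 22 falling (6.49%), and with the block 49 (14.5%) and 56 (16.5%). The split of the first comparison moved with scaling: without scaling 25 were higher and 4 lower, and with the summed signal 36 and 8. Of the 3 members fitted, miR-125a-5p and let-7e-5p were among the higher and the rising ones and miR-125a-3p was called in neither. The members were chosen on this contrast, so nothing is read from that count.

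Fitted differences of zones 5 to 8 minus zones 1 to 4 were 4.09 ± 0.09 log2 units for miR-125a-5p, 3.59 ± 0.18 for let-7e-5p and 0.17 ± 0.26 for miR-125a-3p (SE, limma, 12 arrays each side). The first 2 depend on the floor given to undetected arrays and are no bounds. The SE values count arrays as independent, though 3 mice gave them, and arrays at the floor add no spread. Over the 3 mice the SD of the difference was 0.25 for miR-125a-5p, 0.45 for let-7e-5p and 0.46 for miR-125a-3p. From zone 4 to zone 5, 7 of 339 miRNAs were called higher (2.06%) and 1 lower (0.295%), with miR-125a-5p and let-7e-5p among the 7. Within zones 5 to 8 limma called 0 of 339 miRNAs in either direction (0%), with or without the mouse block, against 18 rising and 12 falling at an unadjusted p under 0.05 without it. Within zones 1 to 4 it also called 0 without the block, against 9 and 4 unadjusted, and with the block 6 rose (1.77%) and 1 fell (0.295%), none of them a member.

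Because both are read on the same array, the ratio of 2 members does not depend on the scaling. The signal of let-7e-5p divided by that of miR-125a-5p stayed within 0.812 and 0.956 on the 12 arrays of zones 5 to 8, and changes of this ratio, not its height, are comparable between probes. In mouse 1 it was 0.898, 0.921, 0.938 and 0.938 in zones 5 to 8. In mouse 2 it was 0.896, 0.897, 0.932 and 0.919, and in mouse 3 0.821, 0.812, 0.820 and 0.956. Mouse 3 was below the other mice in zones 5 to 7 and above them in zone 8. The SD of the log2 ratio was 0.083, smaller than the 0.19 that the deposited errors of both signals give if taken as independent.

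let-7e-5p was also the closest of all partners by this measure. Among 213 miRNAs detected on all 12 portal arrays, the SD of the log2 ratio to miR-125a-5p was lowest for let-7e-5p, followed by miR-99a-5p (0.16) and miR-125b-5p (0.18), with a median of 0.38. For let-7e-5p the order of the first 3 was miR-125a-5p, miR-99a-5p (0.11) and miR-125b-5p (0.13). The arm mate miR-125a-3p ranked 191st for miR-125a-5p, with an SD of 0.65. For this fainter partner the deposited errors give 0.23. The mean log2 ratio of miR-125a-5p to miR-125a-3p was 3.10 in mouse 1, 2.09 in mouse 2 and 2.17 in mouse 3. Between miR-125a-5p and let-7e-5p the log2 signals correlated over these 12 arrays with Pearson r = 0.95 and Spearman rho = 0.94. Between miR-125a-5p and miR-125a-3p the values were 0.16 and 0.27. The 12 arrays come from 3 mice and share their labelling and slides, so these correlations describe these arrays only.

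**Figure D2:**
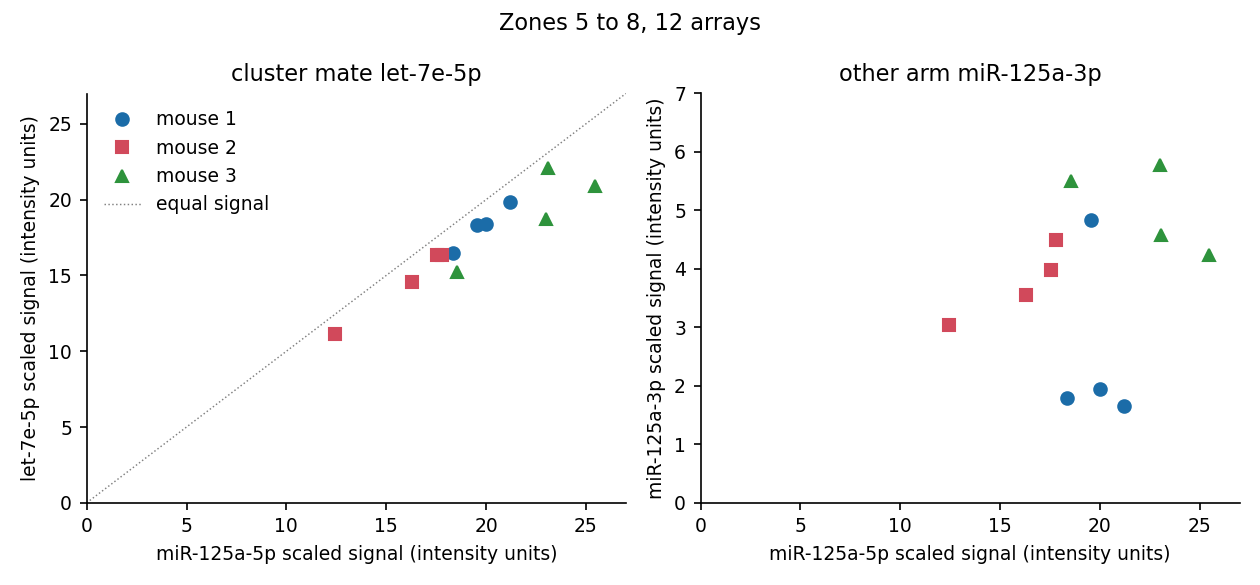
Scaled signals (intensity units) on the 12 arrays of zones 5 to 8, 1 point per array with colour and shape for the mouse, of let-7e-5p (left) and miR-125a-3p (right) against miR-125a-5p. The let-7e-5p points follow a line just under the dotted line of equal signal, at ratios of 0.812 to 0.956, while the miR-125a-3p points of mouse 1 lie apart from those of mice 2 and 3 in zones 5 to 7; the height of a ratio does not compare amounts.

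The split between the arms of miR-125a was set beside the other precursors with both arms fitted. For 31 such precursors the size of the difference between the arms, each arm as zones 5 to 8 minus zones 1 to 4, had a median of 0.25 log2 units. For miR-125a it was 3.93, the highest of the 31, with miR-31 next at 2.25. The arms of miR-31 differ from those of miR-125a in that both were undetected in zones 1 to 4 and detected on all arrays of zones 5 to 8, so neither arm has a measured central level. The 11 precursors with both arms detected on all 24 arrays had a median of 0.13 and reached 0.75 at most, for miR-21a. As miR-125a-5p is at the floor in the central zones, its own value rises or falls with that floor, and the comparison is given without a test. The members were chosen on this same contrast, so nothing is read from the rank of miR-125a. The miR-125a-3p arm was itself faint there, with signals down to 1.51 units.

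**Figure D3:**
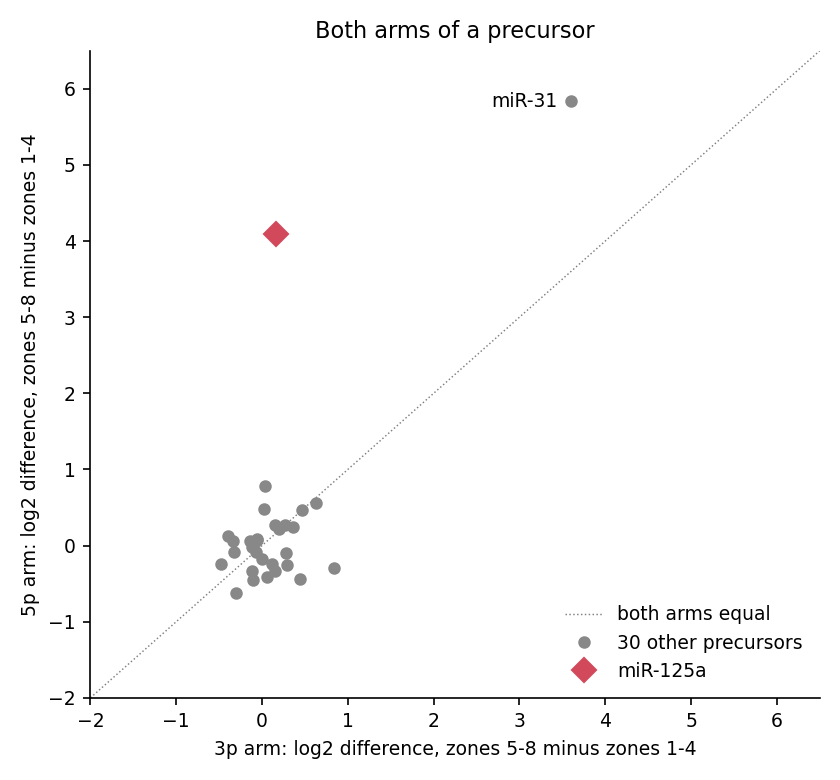
Log2 difference of zones 5 to 8 minus zones 1 to 4 for the 3p arm (x axis) and the 5p arm (y axis) of 31 precursors, 1 point per precursor; the dotted line marks equal differences. miR-125a (red diamond) stands at 0.17 for 3p and 4.09 for 5p, and miR-31 is high on both axes.

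By Pearson r over the 24 arrays and 336 other fitted miRNAs, the patterns most like miR-125a-5p were those of miR-31-5p (0.997), miR-802-5p (0.982) and miR-31-3p (0.978). All 3 are undetected in zones 1 to 4, so r mostly reflects that shared step. For let-7e-5p they were miR-31-5p (0.981), miR-125b-5p (0.975) and miR-802-5p (0.966). Over the 12 portal arrays alone the closest to let-7e-5p were miR-99a-5p (0.913), miR-31-5p (0.90) and miR-125b-5p (0.877), and to miR-125a-5p miR-31-5p (0.819), miR-99a-5p (0.810) and miR-31-3p (0.799). The closest to miR-125a-3p were miR-3058-3p (0.744), miR-7226-5p (0.656) and miR-5131 (0.655), which were detected on 19, 19 and 12 arrays. These partners changed with the measure: without scaling miR-378a-3p (0.810) came first for miR-125a-3p, and by Spearman rho miR-6236 (0.720). For let-7e-5p Spearman rho put miR-30a-5p first (0.941), while miR-31-5p stayed first for miR-125a-5p by both measures and without scaling.

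miRNAs that share a member's seed could be read by near-identical probes, so their sequences and signals are given beside the members. The capitals again mark the seed.
let-7a-5p: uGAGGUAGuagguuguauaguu
let-7g-5p: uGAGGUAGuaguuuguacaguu
miR-125b-5p: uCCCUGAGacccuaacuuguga
miR-99a-5p: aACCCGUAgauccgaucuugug
miR-100-5p: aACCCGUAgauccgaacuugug
Counted from the 5′ end, with the member's base first, let-7e-5p differs from let-7a-5p by G9U alone and from let-7g-5p by G9U, G12U and U18C. miR-99b-5p differs from miR-99a-5p by C1A, A11U, C16U and C21U. miR-125a-5p and miR-125b-5p, of 24 and 22 bases, share their first 13 bases and are 3 single-base edits apart. How far each probe reads the other sequence was not tested.

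Of 10 other miRNAs on the array with the let-7 seed, 8 were detected, each on all 24 arrays, and 8 were fitted. In limma 1 was higher in zones 5 to 8, let-7g-5p, with a difference of 0.42 ± 0.11 log2 units (SE, adjusted p = 0.00787), and 0 were lower. That fit counted arrays of 1 mouse as independent, and in mice 1 to 3 the difference of let-7g-5p was 0.43, 0.61 and 0.23. The call of let-7g-5p was lost without scaling, with quantile normalization and without mouse 1 or mouse 3. Without mouse 2 let-7a-5p and let-7c-5p were called too, making 3. The other 7 had differences between 0.05 and 0.23, all above 0 except with quantile normalization, where 4 of the 8 were. The median of the 8 was 0.12, beside -0.08 over all 339 fitted miRNAs. let-7a-5p, the sequence nearest to let-7e-5p, had log2 signals of 9.43 ± 0.33 in zones 1 to 4 and 9.66 ± 0.11 in zones 5 to 8 (SD over 12 arrays), a difference of 0.23, where let-7e-5p had 3.59.

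The miR-125 seed is carried by 4 other miRNAs on the array, of which miR-125b-5p was detected, on all 24 arrays. Its signal was higher in zones 5 to 8 by 1.21 ± 0.08 log2 units (SE, limma adjusted p = 4.59e-10), from 6.30 ± 0.17 to 7.51 ± 0.20 (SD over 12 arrays), and was called under all 12 settings tried. In mice 1 to 3 the difference was 1.39, 0.97 and 1.27. For the miR-99 seed, 2 others were on the array and both were higher: miR-99a-5p by 1.10 ± 0.10 (adjusted p = 1.45e-07) and miR-100-5p by 1.12 ± 0.17 (adjusted p = 0.000114), in every setting in which they were fitted. These 3 are known from the paralogous clusters that pair miR-99a or miR-100 with let-7c or let-7a and miR-125b. Of 9 arms of miR-99a, miR-100, let-7c and miR-125b on the array 4 were detected, all of them 5p arms, and the 5 3p arms were not. Thus the miR-99 relatives had portal-high signals while miR-99b-5p itself was undetected on 23 arrays. A difference between members and relatives was not tested. The 3 adjusted p values come from the fit without mouse as a block, which counts arrays of 1 mouse as independent. They do not measure the spread between mice. In mice 1 to 3 the difference was 1.15, 1.12 and 1.03 for miR-99a-5p, and 1.49, 0.94 and 0.94 for miR-100-5p.

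**Figure D4:**
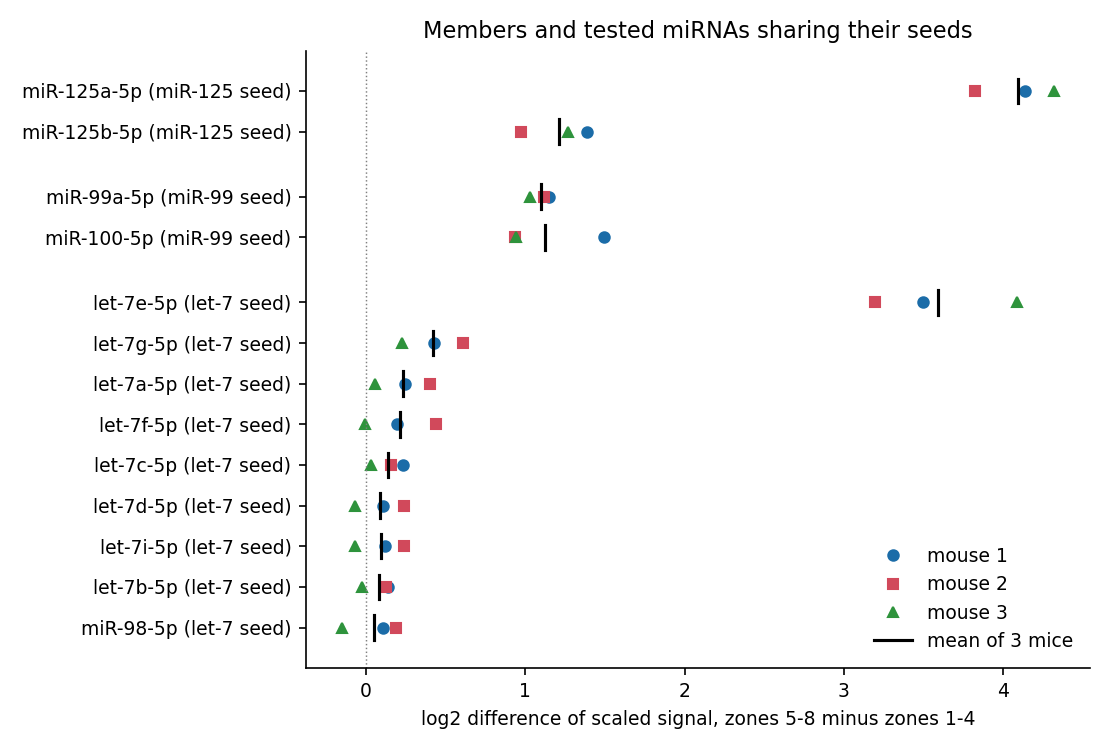
Log2 difference of scaled signal, zones 5 to 8 minus zones 1 to 4, for 2 members and the fitted miRNAs that share a seed with a 5p member, 1 point per mouse and a black bar at the mean of 3 mice. miR-125a-5p and let-7e-5p lie at 4.09 and 3.59, values that rest on the floor for undetected arrays, miR-99a-5p, miR-100-5p and miR-125b-5p between 0.94 and 1.49 in each mouse, and the 8 other let-7 members between -0.15 and 0.61, let-7g-5p highest.

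The mice differed in the level of the members within the portal zones. The geometric mean of the scaled signal of miR-125a-5p over zones 5 to 8 was 19.7 in mouse 1, 15.9 in mouse 2 and 22.4 in mouse 3. let-7e-5p gave 18.2, 14.4 and 19.0, in the same order. miR-125a-3p ordered the mice differently, at 2.30, 3.73 and 4.98 in zones 5 to 8 and 2.52, 3.89 and 3.08 in zones 1 to 4. Portal arrays detected 252 to 299 miRNAs in mouse 1, 278 to 325 in mouse 2 and 311 to 368 in mouse 3. Central arrays detected 248 to 295, 253 to 313 and 289 to 308. Each mouse is 1 animal on 1 slide, so the levels of the members were not tested. Their relation to the number of miRNAs detected was not tested either.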

How the data were processed

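The deposited values are intensity values, total gene signals on a linear scale with an error and a detection call per miRNA, from 1-colour Cy3 arrays. The authors read them with Agilent Feature Extraction, as the submitters' processing notes name it; its version is not given in the sources used here. Undetected miRNAs were deposited as 0.1 with an error of 1. The call is 1 or 0, per the file headers. Signals without 21 control sequences were scaled to a common 75th percentile, taken over 198 miRNAs with a signal on every array, raised to a floor of 1.12 and taken to log2. limma 3.58.1 in R 4.3.3 fitted the 339 miRNAs detected on at least 6 arrays, with 8 zone groups or a slope on the zone number, no block, two-sided, with Benjamini-Hochberg adjustment at 0.05. The fits were tested on simulated data. Figures used matplotlib 3.10.9.

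Groups and mouse numbers came from the sample titles. The numbers pair the arrays because 8 populations came from each animal: deviations from zone means correlated between arrays of a mouse with a median of 0.61 (lowest 0.25). Arrays of a zone correlated at 0.901 to 0.977. Mouse as a block, other scalings, filters, floors and leaving out each mouse were alternatives. The members, lists and tests were chosen with earlier results of these data known. Named miRNAs were the members, the other arms of their precursors, miRNAs sharing their seed, the paralogous cluster arms, and the 3 most alike by Pearson r. miR-31 and miR-21a in the comparison of arms were named after their values were seen. Of 1881 miRNAs 1608 had a RefSeq sequence.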

Additional observations from a re-analysis of the deposited data

How the results depend on the processing

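Of 155 alternative values 121 kept within the spread between mice, 1.5 times the count or, for correlations, 0.05, and 34 moved. The calls of miR-125a-5p and let-7e-5p in zones 5 to 8 against zones 1 to 4 held in all 11 fits that included them. A call of miR-125a-3p was absent in all 12. The members were chosen on this contrast, so nothing is read from these counts. The zone differences of miR-125a-5p and let-7e-5p depend on the floor. They were 6.09 and 4.93 log2 units with a floor 4 times lower, and 2.92 for let-7e-5p with detected values only. Leaving out a mouse gave 3.81 to 4.35 for miR-125a-5p and 3.26 to 3.88 for let-7e-5p. For miR-125a-3p the sign turned, with -0.10 to 0.33, the lower value without mouse 3.

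Counts of called miRNAs moved more. Zones 5 to 8 against zones 1 to 4 called 55, 95 with mouse as a replicate block, 29 with the 75th percentile over all miRNAs (no scaling), and 28 to 46 with a mouse left out, 28 without mouse 1. The slope over 8 zones called 57, 105 with the block, and 32 to 55 with a mouse left out, 32 without mouse 1 and 37 without mouse 3. With the replicate block and slide row both in the fit it called 0, against 19 rising and 18 falling at an unadjusted p under 0.05 in limma, and the slopes of miR-125a-5p and let-7e-5p were then 0.05 ± 0.03 and 0.08 ± 0.07 (SE); row and side of the lobule coincide, so this fit takes the step out by construction. Zone 5 against zone 4 called 8, 5 without scaling or with the summed signal, 2 among miRNAs detected on all arrays, and 5 to 7 with a mouse left out, 5 without mouse 1. Within zones 1 to 4 the block called 7, and 0 to 2 were called with a mouse left out. The block changed no call of a member.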
